A study of Saccharomyces cerevisiae with 6 samples.

Results

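Xylose can enter yeast metabolism through reductases and dehydrogenases that *Saccharomyces cerevisiae* carries in its own genome. A group of 9 genes in or around these steps, taken by symbol from the deposited tables, was followed through 6 RNA-seq libraries. The genes were *GRE3*, *YJR096W*, *YPR1* and *GCY1*, which encode aldo-keto reductases, *XYL2*, *SOR1* and *SOR2*, which encode polyol dehydrogenases, *XKS1*, which encodes xylulokinase, and *PHO13*, which encodes a metabolite phosphatase. All 9 were found among the 5925 genes of the tables, and all 9 passed the filter on low counts.

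The native route starts with an aldose reductase, chiefly Gre3p, that uses NADPH to reduce xylose to xylitol. Xylitol dehydrogenase then oxidizes xylitol to xylulose with NAD, and Xks1p phosphorylates xylulose to the xylulose 5-phosphate that enters the pentose phosphate pathway. Strains that carry a xylose isomerase convert xylose to xylulose directly, and in them *GRE3* is usually deleted because xylitol is a by-product that inhibits the isomerase. Loss of *PHO13* is likewise known to aid xylose use in engineered yeast.

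BSGX001 is a haploid strain made from a laboratory strain of the CEN.PK family, whose genotype is given as Ru-XI (a xylose isomerase), XK (xylulokinase), gre3::PPP (pentose phosphate pathway genes placed at *GRE3*) and cox4delta, followed by adaptive evolution in xylose. BSGX001 (thi2Δ) shares all of these and adds thi2delta, a deletion of *THI2*, the gene of a transcription factor of thiamine metabolism, made with a KanMX4 cassette. There were 3 libraries per strain, all sampled at 20 h of a fermentation whose medium, yeast nitrogen base, was supplied with both sugars, glucose and xylose, at 20 g/L. The labels call this the GX stage. The study that describes the strains defines it as the time when glucose has run out and xylose is still being consumed. That study does not describe these libraries, and its own RNA-seq compared the GX stage with fermentation of xylose alone. The libraries held 7584920 to 12255688 counts each. The labels do not say whether the libraries of a strain came from separate cultures, so the p-values measure only the spread between these libraries.

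The genotypes were first checked on the altered genes. *THI2* was at 16.8, 18.1 and 20.0 FPKM in BSGX001 and at 7.25, 8.05 and 10.3 FPKM in the libraries labelled BSGX001 (thi2Δ), which is 46.6% of the BSGX001 level (log2 fold change -1.10, SE 0.14, adjusted p = 6.32e-08). A deleted gene should give no reads, so these libraries go against their label in part, and they are called the thi2Δ-labelled libraries in what follows. The same holds for both strains at 2 further genes, since *GRE3* kept 395 to 721 counts and *COX4*, listed as deleted, kept 222 to 510 counts in every library. The counts are summed over each gene and do not show which stretch of it the reads came from. No member lies among the 197 genes of chromosome I and of a chromosome XII stretch that stood at a raised level in the thi2Δ-labelled libraries.

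Levels are given as TMM-scaled FPKM, which is the deposited FPKM (fragments per length of gene and size of library) rescaled by the same factors as the test, so that genes and strains can be read on 1 scale. In BSGX001 the 9 genes spanned 19.6 to 995 FPKM, around a median gene of 52.3 FPKM. *YJR096W* stood highest, above 97.6% of all genes, followed by *XKS1* at 352, *GCY1* at 207, *PHO13* at 87.4, *YPR1* at 72.9, *GRE3* at 64.0 and *XYL2* at 40.6 FPKM. *SOR1* at 21.0 and *SOR2* at 19.6 FPKM came last, and they were the only neighbours in this order whose libraries overlapped. The place of these near-identical copies is uncertain, since it is not known how the counting treated reads that they share. The order of the thi2Δ-labelled libraries was the same except that *PHO13* stood behind *YPR1*. There *PHO13* at 54.5, *GRE3* at 49.2 and *XYL2* at 45.1 FPKM were neighbours whose libraries overlapped pair by pair, as were *SOR1* and *SOR2*.

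**Figure D1:**
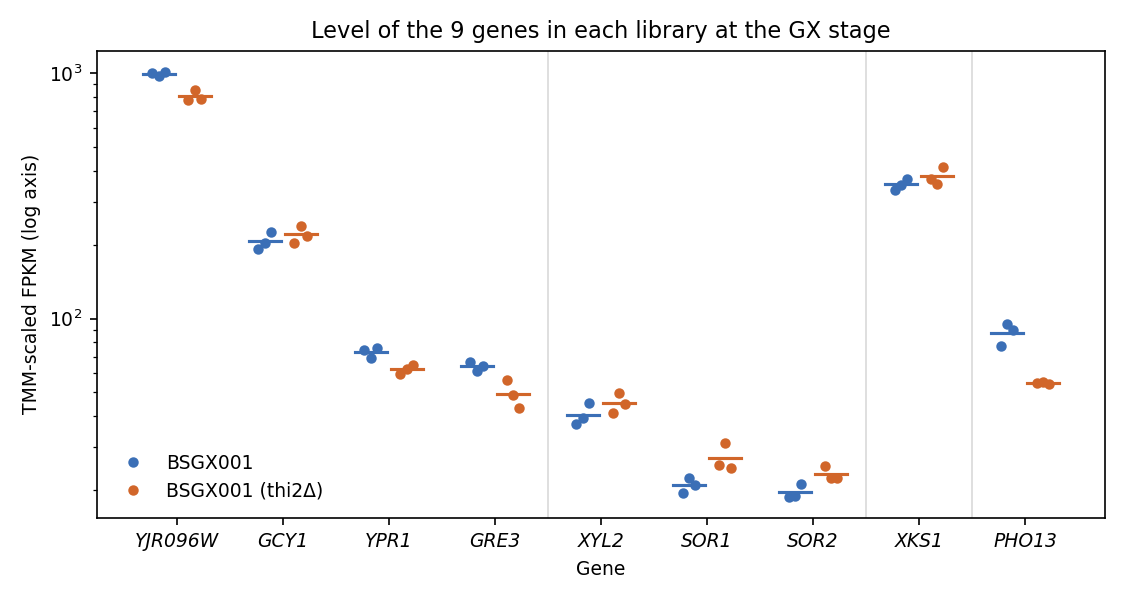
TMM-scaled FPKM of the 9 genes on a log axis, with 1 point per library and a line at the mean of each strain (3 libraries each). Grey lines part the aldo-keto reductases, the polyol dehydrogenases, xylulokinase and the phosphatase. *PHO13* shows the widest gap, with 87.4 FPKM in BSGX001 against 54.5 FPKM.

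Between the strains, 4 of the 9 genes were lower and 1 was higher in the thi2Δ-labelled libraries at an adjusted p under 0.05 (edgeR quasi-likelihood test, Benjamini-Hochberg adjustment over 5774 genes). *PHO13*, *GRE3*, *YJR096W* and *YPR1* fell, and *SOR1* rose. Of all tested genes 51.3% were called, 25.2% as lower and 26.1% as higher, so 5 calls among 9 is close to the background. The libraries of the strains did not overlap for 6 of the 9 genes, 4 of them lower and 2 of them higher, where 57.8% of all genes did not overlap, 28.7% as lower and 29.1% as higher. On the deposited FPKM, which are scaled by library totals, 6 genes did not overlap either, but 1 of them (*PHO13*) was lower and 5 were higher, where 66.1% of all genes did not overlap, 11.7% as lower and 54.4% as higher. The median log2 fold change of the 9 genes was 0.09, beside 0.01 over all genes.

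How the libraries were scaled bore on most of these calls. Scaling by library totals alone moved the median log2 fold change of all genes to 0.23 and called 62.2% of genes, 51.9% as higher and 10.3% as lower. Under it *PHO13* was the only member called lower, and *GCY1*, *XKS1*, *XYL2*, *SOR1* and *SOR2* were all called higher. No member changed the sign of its difference. The scalings differ by a factor per library that shifts all genes alike, so a difference taken relative to the median of all genes barely depends on them. On that footing *PHO13* was at -0.69, *GRE3* at -0.38, *YJR096W* at -0.32 and *YPR1* at -0.24, and *GCY1* was at 0.08, *XKS1* at 0.10, *XYL2* at 0.14, *SOR2* at 0.25 and *SOR1* at 0.35. These values were not tested against the median.

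**Figure D2:**
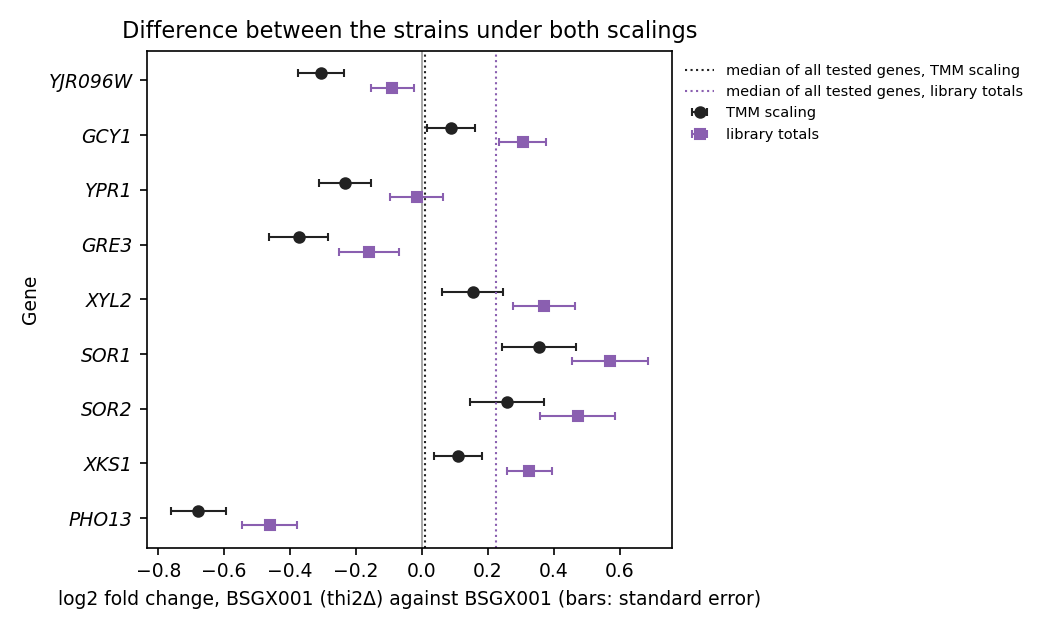
Log2 fold change of the thi2Δ-labelled libraries against BSGX001 for each gene, with bars of 1 standard error, under TMM scaling (circles) and under library totals (squares). Dotted lines mark the median of all tested genes, 0.01 and 0.23. Every gene shown lies on the same side of 0 and of these medians under both scalings.

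Among the aldo-keto reductases, *GRE3*, the gene of the main NADPH-dependent xylose reductase, fell. It was at 66.8, 61.3 and 64.0 FPKM in BSGX001 and at 56.2, 48.6 and 43.0 FPKM in the thi2Δ-labelled libraries. All 3 of the latter lay below the lowest BSGX001 library on this scale, and they were more widely spread, but on the deposited FPKM (62.8, 57.0 and 58.4 against 59.8, 52.7 and 46.6) the strains overlapped. The means were 64.0 ± 2.72 and 49.2 ± 6.61 FPKM (SD, n = 3 each), a log2 fold change of -0.37 (SE 0.09, 95% confidence interval -0.56 to -0.19, adjusted p = 0.000894). With library totals it was -0.16 and was not called (adjusted p = 0.127). Both strains are listed as altered at this gene, so its reads need not come from an intact transcript. *GRE3* is YHR104W, at chrVIII:323409-324392 on the plus strand of the RefSeq R64 reference, which is that of the laboratory strain S288C, and it is a single coding exon of 984 bases. Like the other 8 genes it overlaps no annotated gene.

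*YJR096W*, whose product reduces xylose and arabinose, was the most abundant of the 9. Its level was 1005, 970 and 1012 FPKM in BSGX001 and 780, 853 and 782 FPKM in the thi2Δ-labelled libraries. The strains did not overlap on this scale, though on the deposited FPKM (946, 901 and 923 against 830, 926 and 848) they did. The TMM-scaled mean fell from 995 ± 22.4 to 805 ± 41.7 FPKM (SD, n = 3 each). The log2 fold change was -0.31 (SE 0.07, 95% confidence interval -0.45 to -0.16, adjusted p = 0.000505). Under library totals it was -0.09, with an adjusted p of 0.236. The gene lies at chrX:611195-612043 on the plus strand, with a coding length of 849 bases.

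*YPR1* and *GCY1* arose from 1 ancestral gene and are the closest pair among the reductases. Ypr1p reduces aldehydes such as 2-methylbutyraldehyde, and Gcy1p is a glycerol dehydrogenase that works in glycerol breakdown. Their proteins were identical at 65.4% of aligned positions, against 32.4% to 33.6% for every other pair of the 4 reductases. The longest stretch that their coding sequences share is shown because it bounds how far reads of the pair could be confused. It is 15 bases long, shown in capitals, at chrIV:1214492-1214536 for *YPR1* and chrXV:551702-551746 for *GCY1*, both on the plus strand.
YPR1: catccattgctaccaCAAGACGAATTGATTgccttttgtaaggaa
GCY1: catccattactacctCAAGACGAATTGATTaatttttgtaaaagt
No window of 50 bases in either gene occurs elsewhere in the reference genome.

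*YPR1* was at 74.2, 69.0 and 75.6 FPKM in BSGX001 and at 59.5, 62.1 and 64.8 FPKM in the thi2Δ-labelled libraries. The ranges did not overlap here, but they did on the deposited FPKM (69.9, 64.1 and 68.9 against 63.3, 67.4 and 70.3). The log2 fold change was -0.23 (SE 0.08, 95% confidence interval -0.39 to -0.07, adjusted p = 0.0152). This call was the least stable of the falls. It was lost without thi2Δ-labelled replicate 1 (-0.20, adjusted p = 0.0605), without BSGX001 replicate 3 (-0.21, adjusted p = 0.0622) and under library totals (-0.02, adjusted p = 0.875).

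*GCY1* was at 193, 203 and 226 FPKM in BSGX001 and at 204, 239 and 218 FPKM in the thi2Δ-labelled libraries. The libraries overlapped on this scale, whereas on the deposited FPKM (182, 188 and 206 against 218, 259 and 236) all 3 thi2Δ-labelled libraries lay above BSGX001. The difference was 0.09 on the log2 scale (SE 0.07, 95% confidence interval -0.06 to 0.24, adjusted p = 0.326), and it ranged from 0.03 (without thi2Δ-labelled replicate 2) to 0.15 (without BSGX001 replicate 3) with each library left out, never called. Under library totals it was 0.31 and was called (adjusted p = 0.000655).

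Quantities formed within a library do not depend on the scaling between libraries. The ratio of *YPR1* to *GCY1* was 0.384, 0.341 and 0.335 in BSGX001 and 0.291, 0.260 and 0.297 in the thi2Δ-labelled libraries, with no overlap. The exact two-sided permutation test gave p = 0.1 (adjusted p = 0.2 over 4 ratios), and 0.1 is the smallest value that 3 against 3 libraries allow. The ratio of *GRE3* to *XKS1* was 0.200, 0.175 and 0.172 in BSGX001 and 0.151, 0.137 and 0.104 in the thi2Δ-labelled libraries (log2 difference -0.49, exact permutation p = 0.1, adjusted p = 0.2). Here too every thi2Δ-labelled library lay below the lowest of BSGX001. The ratios of *XYL2* to *XKS1* and of *SOR1* to *SOR2*, given below, overlapped. Of all single genes 57.8% did not overlap between the strains on the TMM scale, and no such share was taken over pairs of genes. Reads of *XKS1* may include the added xylulokinase and *GRE3* is listed as altered, so ratios to *XKS1* need not be of native transcripts alone.

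The 4 reductases together were at 1339, 1303 and 1377 FPKM in BSGX001 and at 1100, 1202 and 1108 FPKM in the thi2Δ-labelled libraries, a sum that was described and not tested. *YJR096W* made up most of this sum, 73.5% to 75.0% in BSGX001 and 70.6% to 71.0% in the thi2Δ-labelled libraries. *GCY1* held 14.4% to 16.4% in BSGX001 and 18.6% to 19.8% in the others. For these 2 genes the strains did not overlap. Of all single genes 57.8% did not overlap on the TMM scale, and no such background was taken for shares of a sum. The shares of a library add up to the whole, so those of the 4 genes are not independent of each other. *GRE3* was a minor part, with 4.78 ± 0.18% and 4.34 ± 0.67% (SD, n = 3 each), and *YPR1* held 5.44 ± 0.13% and 5.48 ± 0.35% (SD, n = 3 each), both with overlapping libraries. Each reductase's share says nothing of enzyme activity, which was not measured.

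**Figure D3:**
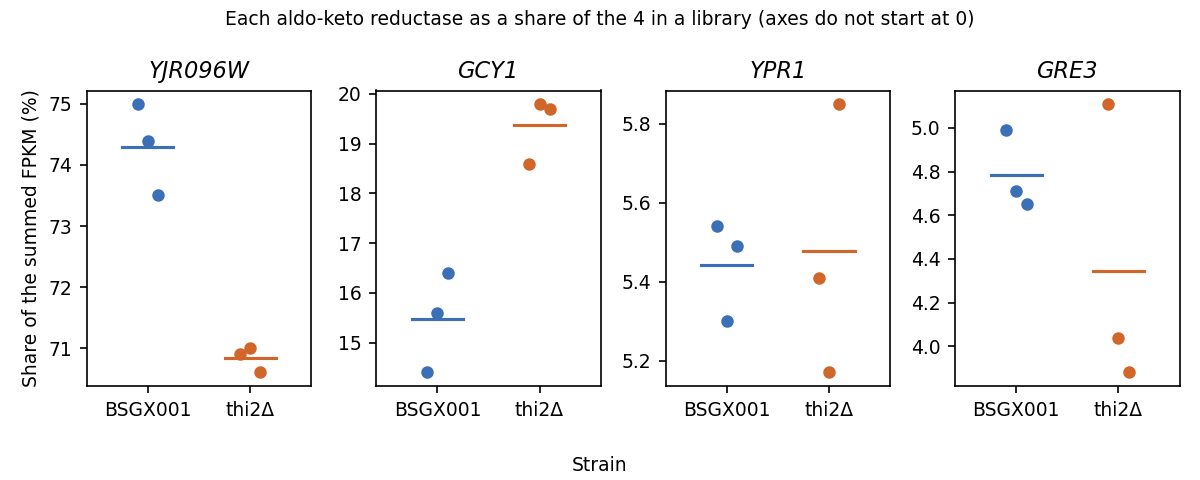
Share of the summed FPKM of the 4 aldo-keto reductases taken by each gene, in percent, with 1 point per library and a line at the mean of each strain; the axes differ and do not start at 0. *YJR096W* lies at 73.5% to 75.0% in BSGX001 and 70.6% to 71.0% in the thi2Δ-labelled libraries, and *GCY1* at 14.4% to 16.4% and 18.6% to 19.8%.

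*SOR1* and *SOR2*, sorbitol dehydrogenase genes, are near-identical copies, and their sequences decide how their values can be read. In the reference their coding sequences of 1074 bases differ by the single substitution G324C, given as the *SOR1* base, the position counted from 1 at the start codon, and the *SOR2* base. The 61 bases around it are shown in the coding direction, with the differing base in capitals, from chrX:736337-736397 (plus strand) for *SOR1* and chrIV:9403-9463 (minus strand) for *SOR2*.
SOR1: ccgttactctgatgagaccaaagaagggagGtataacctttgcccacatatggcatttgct
SOR2: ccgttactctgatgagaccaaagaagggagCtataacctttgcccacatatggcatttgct
The substitution changes 1 residue of the protein, and the 500 bases before the start codons are identical. Of the 50-base windows of each gene 95.1% occur elsewhere in the genome, and of the 100-base windows 89.7%, whereas for the other 7 genes this share was 0. How the counting split reads between the copies, or whether it left shared reads out, is not given in the sources used here. The values of either copy alone are therefore uncertain. Their sum is the firmer quantity, though it too would be too low if shared reads were left out.

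The copies lie in mirrored surroundings near chromosome ends. *SOR1* (YJR159W, chrX:736044-737117, plus strand) ends 8634 bases before the end of its chromosome and lies between *HXT16* and *MPH3*. *SOR2* (YDL246C, chrIV:8683-9756, minus strand) lies between *MPH2* and *HXT15*, and all of these neighbours are sugar transporter genes.

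Added together, *SOR1* and *SOR2* rose. The sum was 38.3, 41.3 and 42.1 FPKM in BSGX001 and 50.4, 53.4 and 46.9 FPKM in the thi2Δ-labelled libraries, and every one of the latter exceeded all of the former. The means were 40.6 ± 2.02 and 50.2 ± 3.24 FPKM (SD, n = 3 each), a 1.24-fold difference (log2 fold change 0.31, SE 0.09, 95% confidence interval 0.14 to 0.48, adjusted p = 0.00334). It stayed called with each library left out (0.27 to 0.36) and with library totals (0.53, adjusted p = 9.88e-06), a pair of checks chosen after seeing the data.

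Taken alone, *SOR1* was at 19.5, 22.4 and 21.0 FPKM in BSGX001 and at 25.3, 31.1 and 24.5 FPKM in the thi2Δ-labelled libraries (log2 fold change 0.36, SE 0.11, adjusted p = 0.00979). *SOR2* was at 18.8, 18.9 and 21.1 FPKM in BSGX001 and at 25.1, 22.3 and 22.4 FPKM in the thi2Δ-labelled libraries (0.26, SE 0.11, adjusted p = 0.053). Neither gene's libraries overlapped between strains, but only *SOR1* passed the threshold. Without BSGX001 replicate 1 (0.30, adjusted p = 0.0543) or thi2Δ-labelled replicate 2 (0.25, adjusted p = 0.0795) *SOR1* did not pass either. The ratio of *SOR1* to *SOR2* was 1.04, 1.18 and 0.994 in BSGX001 and 1.01, 1.39 and 1.09 in the thi2Δ-labelled libraries, which overlapped (exact permutation p = 0.6, adjusted p = 0.8).

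*XYL2*, the xylitol dehydrogenase gene, is related to the sorbitol dehydrogenases, with 53.4% of aligned residues identical to Sor1p. It was at 37.3, 39.2 and 45.2 FPKM in BSGX001 and at 41.1, 49.5 and 44.9 FPKM in the thi2Δ-labelled libraries. The libraries overlapped on this scale but not on the deposited FPKM, where all 3 thi2Δ-labelled libraries were higher. The difference of 0.15 on the log2 scale did not pass the test (SE 0.09, 95% confidence interval -0.04 to 0.34, adjusted p = 0.168), nor did it with any library left out, from 0.09 (without thi2Δ-labelled replicate 2) to 0.24 (without BSGX001 replicate 3). With library totals it was 0.37 and passed (adjusted p = 0.0014). Relative to *XKS1* in the same library, *XYL2* was at 0.112, 0.112 and 0.121 in BSGX001 and at 0.110, 0.140 and 0.109 in the thi2Δ-labelled libraries. These ratios overlapped (log2 difference 0.05, exact permutation p = 1.0). *XYL2* (YLR070C) lies at chrXII:274141-275211 on the minus strand, outside the chromosome XII stretch at a raised level.

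**Figure D4:**
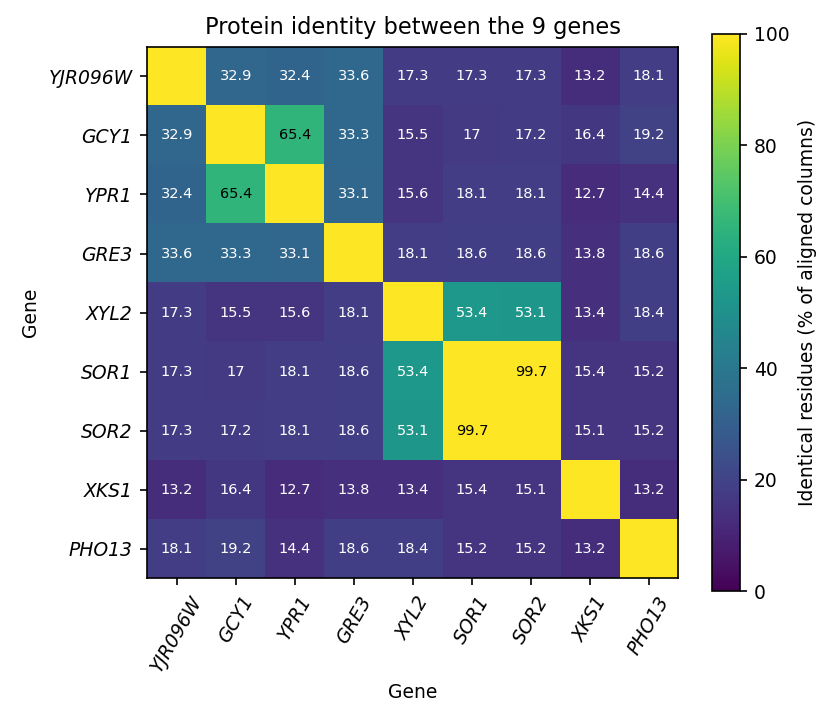
Percent of identical residues between the proteins of the 9 genes, from global alignments of the translated reference sequences; both axes list the genes and the colour scale runs from 0 to 100%. Sor1p and Sor2p share 99.7%, Gcy1p and Ypr1p 65.4%, and Xyl2p and Sor1p 53.4%.

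*XKS1*, the step that the isomerase and the reductase routes have in common, was at 335, 351 and 372 FPKM in BSGX001 and at 372, 354 and 413 FPKM in the thi2Δ-labelled libraries. Its libraries overlapped on this scale but not on the deposited FPKM, where all 3 thi2Δ-labelled libraries were higher. The log2 difference of 0.11 did not pass the test (SE 0.07, 95% confidence interval -0.04 to 0.26, adjusted p = 0.215), nor did it with any library left out, from 0.04 (without thi2Δ-labelled replicate 3) to 0.16 (without thi2Δ-labelled replicate 2). Under library totals it was 0.33 (adjusted p = 0.000181). The strains carry added xylulokinase, listed as XK, and reads of an added copy of the gene cannot be told apart from those of the native one at chrVII:886073-887875.

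*PHO13* showed the largest change of the 9 genes. This phosphatase of phosphoglycolate and related metabolites was at 77.4, 94.9 and 90.0 FPKM in BSGX001 and at 54.8, 54.9 and 53.9 FPKM in the thi2Δ-labelled libraries. The latter lay close together and all below BSGX001. The mean fell from 87.4 ± 9.05 to 54.5 ± 0.55 FPKM (SD, n = 3 each), to 62.5% in the fit (log2 fold change -0.68, SE 0.08, 95% confidence interval -0.85 to -0.51, adjusted p = 4.98e-08). In bulk RNA, fewer cells with the transcript and less of it per cell cannot be told apart. The call held in every alternative that was run, where the log2 fold change ranged from -0.76 to -0.45, and 2.6% of all tested genes were called with a fall at least as large. *PHO13* (YDL236W) lies at chrIV:32296-33234 on the plus strand and had 426 to 737 counts in every library. The labels list no change at *PHO13*, and neither does the study's own list of strains for BSGX001. The study's introduction names the gene among those deleted in BSGX001, and these counts go against such a deletion of the whole gene.

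The upstream regions were searched for the stress response element AGGGG, which the stress factors Msn2p and Msn4p bind, and for the site of Gal4p, the activator of the galactose genes, on both strands of the 500 bases before each start codon. The stress element occurred before 5 of the 9 genes and before 34.0% of 6019 genes of the reference. Matches were found before *GRE3*, *YJR096W*, *GCY1*, *XYL2* and *XKS1*, and none was found before *YPR1*, *SOR1*, *SOR2* or *PHO13*. The matches of the 3 reductases are shown because these genes moved differently, *GRE3* and *YJR096W* down and *GCY1* without a call. They are in capitals on the plus strand, at chrVIII:323256-323280, chrX:611054-611078 and chrXV:550820-550844, and begin 143, 131 and 284 bases before the start codon.
GRE3: tactacttctAGGGGgcctatcaag
YJR096W: tgtcgatatgAGGGGaggtgtctct
GCY1: cttctcagaaAGGGGtagaatcaat
The Gal4p site was found before *GCY1*, which is named for its induction by galactose, and before 2.99% of all genes. It begins 369 bases before the start codon, at chrXV:550739-550767, is in capitals, and does not overlap the stress element.
GCY1: aacaatCGGGGCAGACTATTCCGgggaag
A match of letters is a description and not a bound site.

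The genes whose pattern over the 6 libraries was most like that of *GRE3* were *DIT1*, *SLM1* and *HSL1*. Their log2 CPM, centred per gene, differed from *GRE3* by a root mean square of 0.03, 0.04 and 0.04, where the median over 5773 genes was 0.26. *YJR096W* ranked 577 and *YPR1* ranked 1231 in this likeness to *GRE3*, and *PHO13* ranked 2183.

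Other enzymes around these genes moved in both directions. Of 8 tested further aldo-keto reductases, 1 rose, 2 fell and 5 were not called, with a median log2 fold change of 0.03 (library totals: 4 higher, 1 lower). *ARA1*, the gene of an arabinose dehydrogenase subunit, rose by 0.32 (SE 0.08, adjusted p = 0.00174). *YDL124W*, the gene of an NADPH-dependent keto reductase, fell from 1611 ± 72.9 to 1226 ± 68.5 FPKM (SD, n = 3 each; log2 fold change -0.39, adjusted p = 5.02e-05) and stood above *YJR096W* in both strains. Of 6 other aldehyde and diol oxidoreductases, 2 rose and 1 fell, with a median of -0.03 (library totals: 3 higher, 1 lower), and both that rose, *BDH1* and *BDH2*, lie among the chromosome I genes at a raised level. The fall was that of *ADH6*, an NADPH-dependent alcohol dehydrogenase gene (-0.46, SE 0.07, adjusted p = 4.32e-06).

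Among 9 genes of dihydroxyacetone and glycerol steps next to *GCY1*, 3 rose and 4 fell, with a median of -0.10 (library totals: 4 higher, 4 lower). The largest rise was that of *GUT1*, the glycerol kinase gene (0.69, SE 0.07, adjusted p = 2.93e-09), and the largest fall that of *GPD2*, a glycerol 3-phosphate dehydrogenase gene, from 266 ± 17.5 to 140 ± 2.74 FPKM (SD, n = 3 each; -0.93, adjusted p = 1.38e-12). Downstream of *XKS1*, 2 of 6 genes of the non-oxidative pentose phosphate pathway rose and 1 fell, with a median of 0.04 (library totals: 5 higher, 1 lower). *RKI1*, the ribose 5-phosphate isomerase gene, rose from 58.3 ± 6.82 to 95.9 ± 2.46 FPKM (SD, n = 3 each; 0.71, adjusted p = 3.77e-08), and *RPE1*, the ribulose 5-phosphate epimerase gene, fell from 1401 ± 151 to 1009 ± 40.9 FPKM (SD, n = 3 each; -0.47, adjusted p = 6.46e-06). The strains carry added pentose phosphate pathway genes, so native and added copies cannot be told apart here either. The shares called in these lists and those of the paragraph before stand beside 51.3% over all genes, 26.1% as higher and 25.2% as lower. Under library totals 51.9% of all genes were higher and 10.3% lower. Every gene of these lists given here with an adjusted p was also called, in the same direction, under library totals.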

How the data were processed

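RNA of 2 strains was measured in 3 poly(A) libraries each. The authors deposited, per library, the expected count of each gene, a whole number in all 35550 values, and the FPKM, scaled by gene length and library total. The submitters' processing notes name the build R64 and the tool DESeq, while the aligner and counter are not given in the sources used here. Series tables of the authors' comparison, with log2 fold changes, p-values and q-values, were not used, nor were 12 further per-sample columns, all 12 equal to the per-library values. Strain and replicate came from the sample labels.

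Counts, which needed no rounding, were compared with edgeR 4.0.16 in R 4.3.3 (TMM, filterByExpr, robust quasi-likelihood test, Benjamini-Hochberg adjustment over 5774 genes, called at 0.05). Standard errors (SE) were taken as the size of the log2 difference over the root of its F statistic, and intervals from the t distribution with the fit's degrees of freedom. TMM-scaled FPKM is the deposited FPKM times the library total over the effective library size. Ratios were tested by exact permutation. No pair of libraries was a duplicate (chi-square per degree of freedom at least 4.05). Names, positions and sequences came from the RefSeq R64 assembly of S288C and not from the strains, and 2 gene IDs had no match. Identities used Biopython 1.88. The edgeR and DESeq2 fits were tested on simulated counts. Alternatives were RLE scaling, library totals, other filters on low counts, DESeq2 1.42.0, limma 3.58.1 on log2(FPKM + 1) and log2(FPKM + 0.1), a replicate block, each library left out, a threshold of 0.01, removal of chromosome I and the chromosome XII stretch, and *SOR1* with *SOR2* added. The named genes were the 9 members, *THI2* and *COX4*, the largest called rise and fall of each list and the 3 genes nearest to *GRE3* in pattern. *BDH1* was named after its values were seen. The members and lists were chosen with earlier results of these data known. *AAD3*, *AAD16* and *ADH7* were not found under these symbols among the deposited genes and so were not analysed.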

Additional observations from a re-analysis of the deposited data

How the results depend on the processing

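The calls depended on the scaling. Under library totals alone 5 members were higher and 1 was lower, against 1 and 4 with TMM. The same held under limma on log2(FPKM + 1) or log2(FPKM + 0.1), whose FPKM are scaled by library totals too. In these settings 50.8% to 51.9% of all genes were higher and 9.66% to 10.3% lower, against 26.1% and 25.2% with TMM. Without chromosome I and the chromosome XII stretch 2 members were higher, where 24.8% of all genes were. With each library left out the number higher ranged from 0 (without BSGX001 replicate 1) to 2 (without BSGX001 replicate 3). The number lower ranged from 3 to 4. Over all genes the shares then ranged from 21.4% to 24.3% as higher and from 21.4% to 24.7% as lower. At an adjusted p under 0.01, 3 members were lower and 1 was higher. Of all genes 2209 were called at that threshold, 19.6% as lower and 18.6% as higher. *SOR2*, not called in the main edgeR fit (adjusted p = 0.053), was called in 7 alternatives, 1 of them its sum with *SOR1*. Some of these kept TMM, such as the edgeR fit without BSGX001 replicate 3 (adjusted p = 0.0432). The checks on the *SOR1* and *SOR2* sum, the overlap on the deposited FPKM and the counts of the gene lists under library totals were added after seeing the data. No member changed sign in any alternative, and *PHO13* was called in all of them. Libraries of the same replicate number did not deviate together (correlations of 0.05, -0.07 and -0.03), and the replicate block called 3020 genes against 2964 and changed no member's call. Taking the within-library ratios from counts cannot change their log2 differences, since gene length cancels. At 156 to 354 counts per library, *SOR1* and *SOR2* are the members most limited by depth.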

Other observations

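Genes whose loss or mutation is known to affect xylose use, a list chosen with earlier results of these data known, moved in both directions. Of 9 such genes, 2 rose, 5 fell and 2 were not called. Their median log2 fold change was -0.48 beside 0.01 over all genes, of which 25.2% were called lower. Library totals gave 3 higher and 5 lower, where 10.3% of all genes were called lower. *ISU1*, the gene of an iron-sulfur cluster scaffold, fell from 3066 ± 192 to 1688 ± 48.1 FPKM (SD, n = 3 each; log2 fold change -0.86, SE 0.07, adjusted p = 3.02e-11, edgeR quasi-likelihood test). *BUD21*, the gene of a ribosomal RNA processing factor, rose from 15.9 ± 0.69 to 23.8 ± 2.36 FPKM (SD, n = 3 each; 0.58, SE 0.15, adjusted p = 0.00138). Of 15 general stress response genes, a class to which *GRE3* belongs, 5 rose, 6 fell and 4 were not called, with a median of 0.00 (library totals: 8 higher, 5 lower), where 26.1% of all genes rose and 25.2% fell (library totals: 51.9% and 10.3%). *GRE1*, a hydrophilin gene, rose by 0.59 (adjusted p = 3.46e-07), and *HSP104*, the disaggregase gene, fell by 0.87 on the log2 scale (adjusted p = 1.82e-09).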
